A study of Equus caballus with 28 samples.

Results

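eca-miR-451, eca-miR-144 and both arms of eca-miR-486 are the horse forms of miRNAs that are abundant in red blood cells, and they are described here in the uterus, the embryo and their fluids 13 days after ovulation. Every known miRNA named eca-miR-451, eca-miR-144 or eca-miR-486, with or without an arm suffix, was taken, which gave 4 of the 690 known miRNAs and of the 844 known and predicted miRNAs in all. They are eca-miR-451, eca-miR-144, eca-miR-486-5p and eca-miR-486-3p. They were read in every library as a possible gauge of red cell content, and whether they measure it was not tested. The 4 did not always move together, as the endometrium of mare 5 was low in both miR-486 arms only.

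Small RNA was sequenced from 28 samples of 5 Warmblood mares, each of which was to be her own control in an inseminated and an unbred cycle. The groups were endometrial biopsies of pregnant (5) and cyclic (4) cycles, uterine fluid (UF) of pregnant (5) and cyclic (4) cycles, embryonic tissue without its capsule (5) and yolk sac (YS) fluid (5). Every mare received hCG to induce ovulation in either kind of cycle, and all samples were taken on day 13, so no group stands for an untreated or a later uterus. UF was taken up undiluted by a tampon, washed out with water and cleared by centrifugation, and the biopsy was taken last. In pregnant cycles the uterus had been flushed before the biopsy to recover the embryo, and whether cyclic uteri were flushed is not given in the sources used here, so that such a flush and pregnancy cannot be told apart in the biopsies. A pregnant sample came from a mare inseminated with semen of 1 stallion, and YS fluid was drawn through a needle from the embryo of that cycle. Cyclic libraries of mare 5 were not analysed here. Replicate 1 to 5 of each group was read as mare 1 to 5, so that replicates are separate mares or embryos.

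Red cell precursors transcribe miR-144 and miR-451 together from a single locus under the erythroid factor GATA1. miR-451 is known for its unusual maturation, as its short hairpin is cleaved by Argonaute 2 instead of Dicer and leaves no second arm. miR-486 lies within the gene of ankyrin 1, a protein of the red cell membrane skeleton, and is also made in muscle. In the horse RefSeq annotation of assembly TB-T2T, MIR486 lies within the span of ANK1 and 0 annotated genes lie between MIR451 and MIR144. Mature red cells have no nucleus but keep these miRNAs, so that red cells, and plasma after haemolysis, carry them into any sample that holds blood. The series measures whole samples, in which fewer cells of a type and less RNA per cell cannot be told apart.

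Library totals lay between 280065 and 590593 reads in pregnant endometrium, 61836 and 371630 in cyclic endometrium, 79173 and 152860 in pregnant UF, 62087 and 226308 in cyclic UF, 28204 and 44768 in embryo and 4352 and 14531 in YS fluid. Levels are given as CPM, which are reads scaled to the total of the library, with the SD over libraries. A marker list was read to check the embryo label. The embryo list (miR-302, miR-367, miR-371 and miR-372, known from pluripotent cells) summed to between 12020 and 65295 CPM in embryo and to at most 32.2 CPM in any endometrial or UF library. In YS fluid it summed to between 34891 and 264130 CPM, so the list does not tell embryo from YS fluid. Embryo 1 stood apart from the other embryos (root mean square distance 2.92 log2 units over 181 miRNAs, against 0.861 to 1.67 for the others), and cyclic UF 3 stood apart less clearly (1.80, against 0.884 to 1.22). RNA of UF and YS fluid was extracted with a serum and plasma kit and RNA of endometrium and embryo with a tissue kit, so that in any fluid against tissue comparison the kit and the sample type cannot be told apart.

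The 4 miRNAs together took a median of 0.588% of the reads in pregnant endometrium (range 0.267 to 1.13%) and 0.767% in cyclic endometrium (0.650 to 1.35%). In UF their share was 0.0586% in pregnant (0.0519 to 0.325%) and 0.126% in cyclic cycles (0.115 to 0.286%). It was 0.0221% in embryo (0.0112 to 0.0314%) and 0.0551% in YS fluid (0.0230 to 0.138%). The medians were thus highest in the biopsies and lowest in the embryos, and the highest UF library of each cycle reached the lowest pregnant biopsy.

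miR-451 lay at 942, 2894, 794, 2703 and 1674 CPM in the pregnant endometrium of mares 1 to 5 and at 1730, 4468, 1668 and 2407 CPM in the cyclic endometrium of mares 1 to 4. In pregnant UF it lay at 29.7, 83.7, 91.6, 60.3 and 429.4 CPM and in cyclic UF at 103, 548, 16.1 and 97.5 CPM. Every UF library was below every endometrial library. In embryo it was 35.5, 44.7, 110, 34.6 and 72.5 CPM, from 11 reads in all, and in YS fluid 132, 138, 76.5, 689 and 0 CPM, from 7 reads in all. The order of the means was cyclic endometrium (2568 ± 1310 CPM, SD, n = 4), pregnant endometrium (1801 ± 972, n = 5), YS fluid (207 ± 275, n = 5), cyclic UF (191 ± 241, n = 4), pregnant UF (139 ± 164, n = 5) and embryo (59.5 ± 32.3, n = 5). Of these neighbours only pregnant endometrium and YS fluid did not overlap, and the highest YS fluid value rested on 3 reads.

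miR-486-5p, the dominant arm, was the most abundant of the 4 miRNAs in every group. It lay at 4448, 8323, 5017, 5720 and 948 CPM in the pregnant endometrium of mares 1 to 5 and at 4706, 8766, 5331 and 5722 CPM in cyclic endometrium. In UF the values were 542, 410, 877, 458 and 2804 CPM in pregnant and 1234, 2289, 1144 and 1036 CPM in cyclic cycles. Mare 5 set both the lowest endometrial and the highest UF value. In embryo miR-486-5p lay between 67.0 and 242 CPM (26 reads) and in YS fluid between 153 and 689 CPM (21 reads). The means fell from 6131 ± 1806 CPM (SD, n = 4) in cyclic endometrium to 4891 ± 2656 (n = 5) in pregnant endometrium, 1426 ± 581 (n = 4) in cyclic UF, 1018 ± 1015 (n = 5) in pregnant UF, 414 ± 215 (n = 5) in YS fluid and 147 ± 74.2 (n = 5) in embryo. Each group overlapped with the next in this order, pregnant endometrium with cyclic UF only through mare 5.

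The minor arm miR-486-3p was far rarer. Pregnant endometrium held 72.7, 50.3, 59.3, 71.4 and 3.47 CPM and cyclic endometrium 64.7, 96.3, 53.8 and 64.7 CPM. Both UF groups held a few reads per library (9 reads in pregnant and 11 in cyclic UF), at 6.54 to 36.2 and 11.5 to 22.1 CPM. In embryo 1 read was found, in embryo 1, and in YS fluid none. Over pooled reads there were 93.7 reads of the 5p arm per read of the 3p arm in pregnant endometrium, 91.6 in cyclic endometrium, 57.3 in pregnant UF and 91.5 in cyclic UF. The single read of the 3p arm in the endometrium of mare 5 stood beside 273 reads of the 5p arm, so that both arms were low in that library while miR-451 (1674 CPM) and miR-144 (48.6 CPM) were not.

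miR-144, the partner of miR-451 in the same transcript, was rare. It lay at 29.1, 17.8, 6.77, 39.3 and 48.6 CPM in pregnant endometrium (45 reads) and at 0, 176, 37.7 and 64.7 CPM in cyclic endometrium (85 reads, of which 53 came from mare 2). Over pooled reads it amounted to 1.50% of miR-451 in pregnant and 3.10% in cyclic endometrium. Pregnant UF held 1 read, and cyclic UF, embryo and YS fluid held none. A count of 0 allows up to 3 reads over a group, which is 4.56 CPM in cyclic UF, 16.7 CPM in embryo and 55.6 CPM in YS fluid, and these limits cover counting error only. The last of these lies above the 24.4 CPM of pooled pregnant endometrium, so miR-144 was not detectable in YS fluid at this depth.

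**Figure D1:**
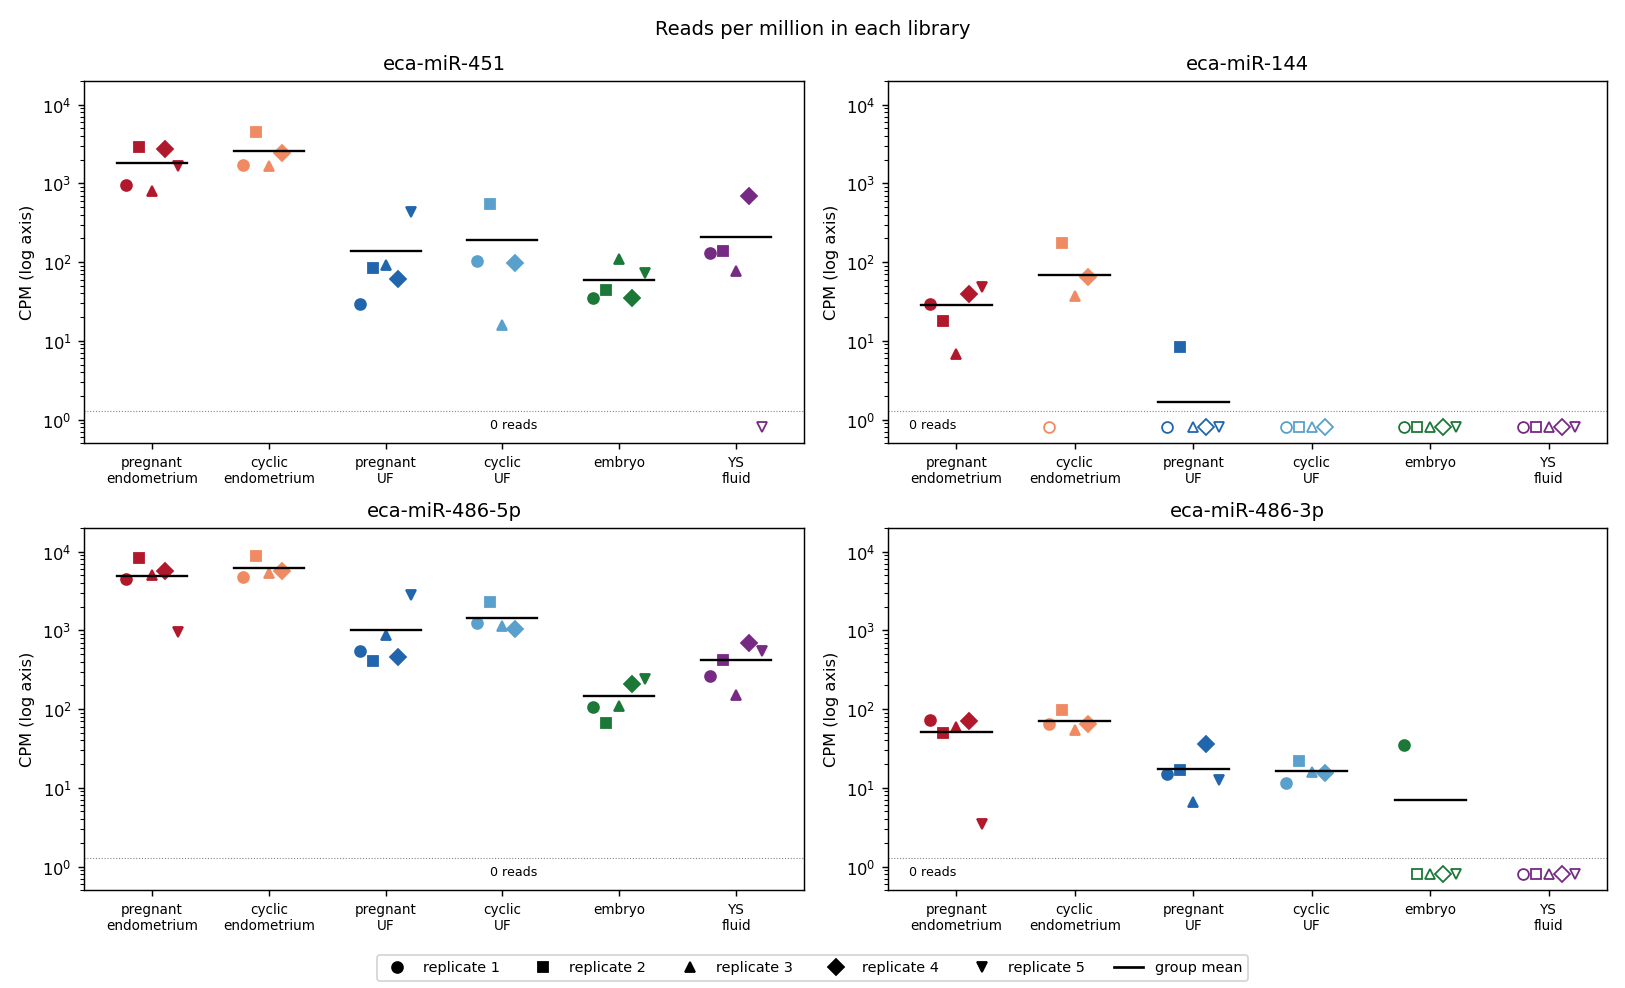
CPM of each of the 4 miRNAs (log axis) in each library of the 6 groups, with the marker shape giving the replicate, the black line the group mean and open markers at the bottom libraries with 0 reads. The endometrial means are highest in each panel, and UF lies roughly a log10 unit lower for miR-451. Mare 5 (inverted triangle) is low in pregnant endometrium for both miR-486 arms but not for miR-451 or miR-144.

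The first question was whether pregnancy changed these miRNAs in the endometrium. A miRNA counted as called when edgeR's quasi-likelihood test gave an FDR of 0.05 or less and a change of 2-fold or more. Here the model held a term for each mare, so that mare 5 dropped out of the contrast. Of the 4 miRNAs 0 were called in pregnant against cyclic endometrium, where 3.37% of 386 miRNAs were called, and 1 had an unadjusted p below 0.05. DESeq2 also called 0 of them. miR-144 differed by -1.34 on the log2 scale (SE 0.59, FDR 0.223) and was lower in 3 of the 4 mares, the cyclic library of mare 1 being at 0 reads. Without mare 1 it was called (-1.98, FDR 0.0418), and without mare 2 the difference was -0.78 (FDR 0.773). miR-451 differed by -0.36 (SE 0.26, FDR 0.658) and was lower in 3 of 4 mares.

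miR-486-5p was nearly the same in both cycles of a mare. On plain CPM the pregnant endometrium held between 94.1 and 100.0% of the cyclic level of the same mare, a mean log2 difference of -0.06 ± 0.04 (SD, n = 4 mares), while the 4 cyclic levels differed between mares with an SD of 0.39 on the log2 scale. miR-451 showed no such match, with 47.6 to 112% of the cyclic level and a within-mare SD of 0.54, against 0.66 between the cyclic levels. How often other miRNAs match as closely as miR-486-5p was not examined. After TMM normalization the difference of miR-486-5p was 0.17 (SE 0.23, FDR 0.826, 95% interval -0.27 to 0.62) and that of miR-486-3p 0.08 (SE 0.49, FDR 0.977, interval -0.89 to 1.05). The sign of both changed with the scaling, and with library totals they were -0.06 and -0.14.

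**Figure D2:**
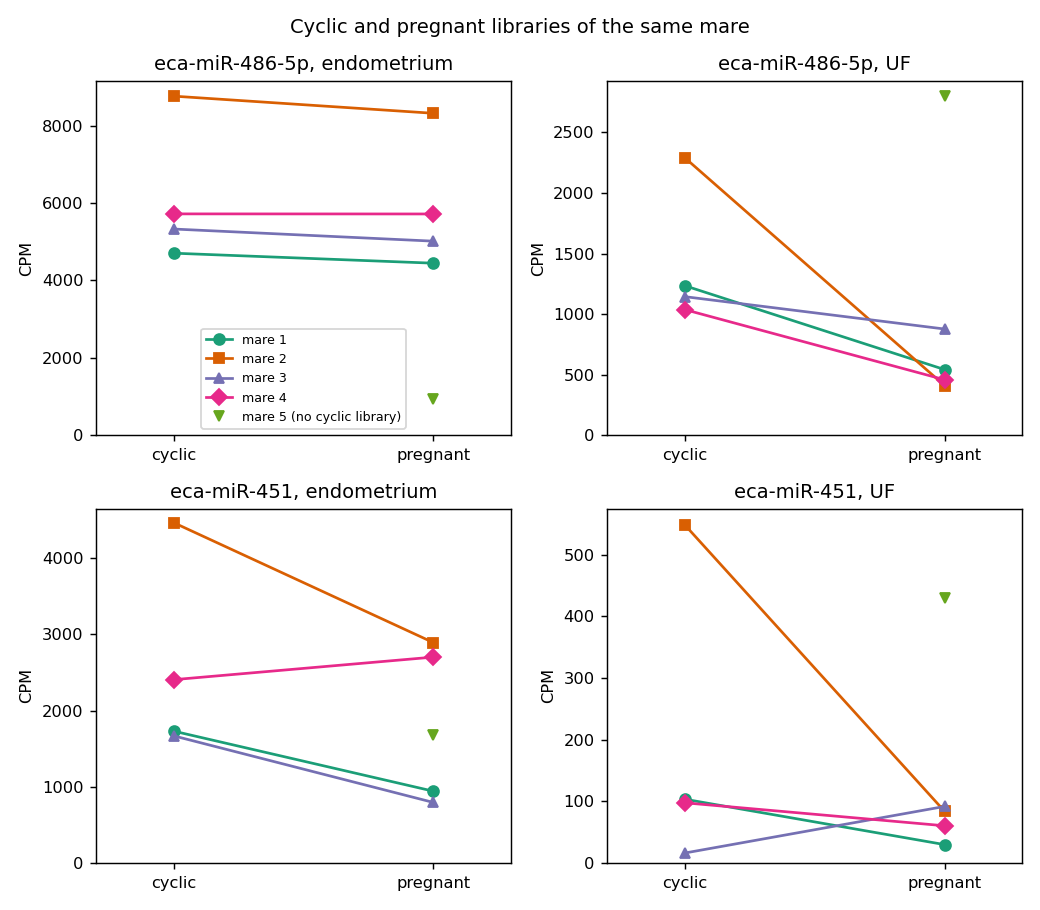
CPM of miR-486-5p (top) and miR-451 (bottom) in the cyclic and pregnant library of each mare, in endometrium (left) and UF (right), each on its own linear axis from 0. The lines of miR-486-5p in endometrium are nearly level for mares 1 to 4, those in UF all fall, and mare 5 has a pregnant library only.

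In UF, pregnancy went with less miR-486-5p in each of the 4 mares, but the miRNA did not pass the adjusted threshold. The pregnant UF held 17.9 to 76.7% of the level in cyclic UF of the same mare. The log2 difference was -1.22 (SE 0.42, FDR 0.0774), and 0 of the 3 miRNAs tested were called, against 4.92% of 305 miRNAs. At an unadjusted p below 0.05 it was 1 of 3, and DESeq2 called 0. miR-486-5p was called when known miRNAs alone were fitted (-1.22, FDR 0.0382), when the 4 miRNAs were left out of the scaling (-1.26, FDR 0.0380), and without replicate 3 (-1.48, FDR 0.0431) or replicate 5 (-1.28, FDR 0.0471). It was -0.89 (FDR 0.742) without mare 2, and without the mare as block, when mare 5 enters, it was -0.50 (FDR 0.751). miR-451 differed by -0.96 (SE 0.63, FDR 0.565) and was lower in 3 of 4 mares, mare 3 having 91.6 CPM in the pregnant and 16.1 CPM, a single read, in the cyclic cycle. miR-486-3p differed by 0.30 (SE 0.98, FDR 0.993), and miR-144 had too few reads to be tested.

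An interaction term asked whether pregnancy acted differently in UF and in endometrium. For miR-486-5p the effect in UF was lower than in endometrium by -1.51 on the log2 scale (SE 0.44, FDR 0.0694), which did not pass, while DESeq2 gave -1.28 with an FDR of 0.0209. Of the 4 miRNAs 0 passed (1.69% of 415 miRNAs did), and 1 had an unadjusted p below 0.05. The interaction was -0.81 (SE 0.61, FDR 0.933) for miR-451 and 0.12 (SE 0.90, FDR 1) for miR-486-3p. No interaction is given for miR-144, which had a single read in UF.

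The second question was how the fluid of the uterus differed from its wall. In pregnant cycles 3 of the 4 miRNAs were lower in UF than in endometrium, where 20.1% of 359 miRNAs were called lower. miR-451 fell by 3.93 on the log2 scale (SE 0.58, FDR 0.000165) and miR-486-5p fell by 2.50 (SE 0.56, FDR 0.00258). miR-144 fell by 3.68 (SE 0.95, FDR 0.00649) and was found at 1 read in UF, a pooled ratio of 13.9 with a 95% counting interval of 2.37 to 562. miR-486-3p differed by -1.74 (SE 0.70, FDR 0.0632) and was called when the mare was added as a block (-1.71, FDR 0.0360). For miR-451 every UF library lay below every endometrial library, which held for 18.1% of all miRNAs tested. The others overlapped between the groups.

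The overlap of miR-486-5p came from mare 5. Among the 9 pairs of UF and endometrium of the same cycle, miR-451 was lower in UF in 9, by 3.84-fold to 69.1-fold with 0.5 reads added. The highest fold, in the cyclic cycle of mare 3, rests on 1 read of miR-451 in UF. miR-486-5p was lower in UF in 8 of the 9 pairs. The exception was mare 5, with 2804 CPM in UF and 948 CPM in endometrium, a log2 difference of 1.57. Without mare 5, miR-486-5p fell by 3.40 (SE 0.35, FDR 9.87e-06), miR-451 fell by 4.76 (SE 0.49) and miR-486-3p fell by 1.95 (FDR 0.0107), so that 4 of 4 were called.

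In cyclic cycles the 3 miRNAs that could be tested were all lower in UF, against 18.9% of 328 miRNAs. miR-451 fell by 3.99 (SE 0.70, FDR 0.000463), miR-486-5p fell by 2.29 (SE 0.37, FDR 0.000279) and miR-486-3p fell by 2.25 (SE 0.60, FDR 0.00884). For each of these 3 every UF library lay below every endometrial library, which held for 18.6% of all miRNAs tested. Without cyclic UF 3 and its endometrium, miR-451 fell by 3.77, miR-486-5p by 2.26 and miR-486-3p by 2.33 on the log2 scale, and all 3 stayed called. The call of miR-486-3p was lost without replicate 1 or without replicate 4. miR-144 was at least 18.4-fold lower in pooled cyclic UF, computed against 3 reads over the group, and at least 6.46-fold lower without mare 2.

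**Figure D3:**
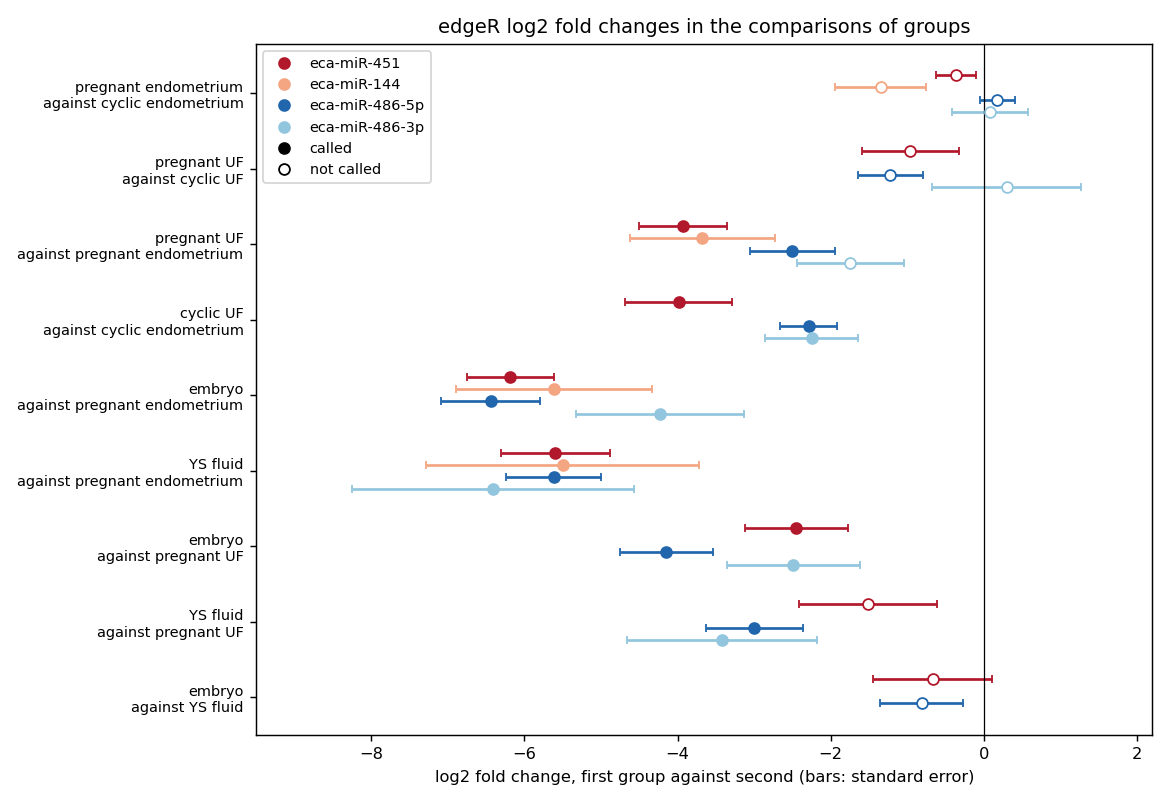
log2 fold change of each of the 4 miRNAs in the 9 comparisons of groups (first against second, bars are standard errors), filled where the miRNA was called in edgeR's quasi-likelihood test. All filled points lie left of 0, and a miRNA with no point in a comparison, such as miR-144 in cyclic UF, had reads in too few libraries to be tested.

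Relative to miR-486-5p, miR-451 was lower in UF than in endometrium. Reads of miR-486-5p per read of miR-451 were 4.72, 2.88, 6.32, 2.12 and 0.566 in pregnant endometrium and 2.72, 1.96, 3.20 and 2.38 in cyclic endometrium. In UF they were 18.2, 4.9, 9.57, 7.6 and 6.53 in pregnant and 11.9, 4.18, 71 and 10.6 in cyclic cycles. The cyclic groups did not overlap and the pregnant groups did. This ratio needs no scaling between libraries. It was chosen after the values were seen, so the p-values below describe these libraries and are no independent test of the difference. The permutation did not pair UF and endometrium of the same mare. With 0.5 reads added to each count, its mean log2 difference between UF and endometrium was 1.66 (SE 0.68, n = 5 and 5, exact two-sided permutation p = 0.0238, adjusted over both tests 0.0286) in pregnant cycles. It was 2.30 (SE 0.74, n = 4 and 4, exact permutation p = 0.0286, the smallest that 4 against 4 allow, adjusted 0.0286) in cyclic cycles. With a mare left out of the pregnant cycles, where 4 against 4 can reach 0.0286, the exact permutation p was 0.0286 without mare 2 but 0.0571 without mare 1 or 3 and 0.0857 without mare 4 or 5, so that the threshold was missed in 4 of 5 cases. The lowest of these differences was 1.20, without mare 5. In cyclic UF 3, where the ratio of 71 rests on 1 read of miR-451, leaving the mare out gave 1.77 (exact permutation p = 0.1, the smallest that 3 against 3 allow). In embryo and YS fluid the pooled ratios were 2.36 and 3, from 11 and 7 reads of miR-451.

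**Figure D4:**
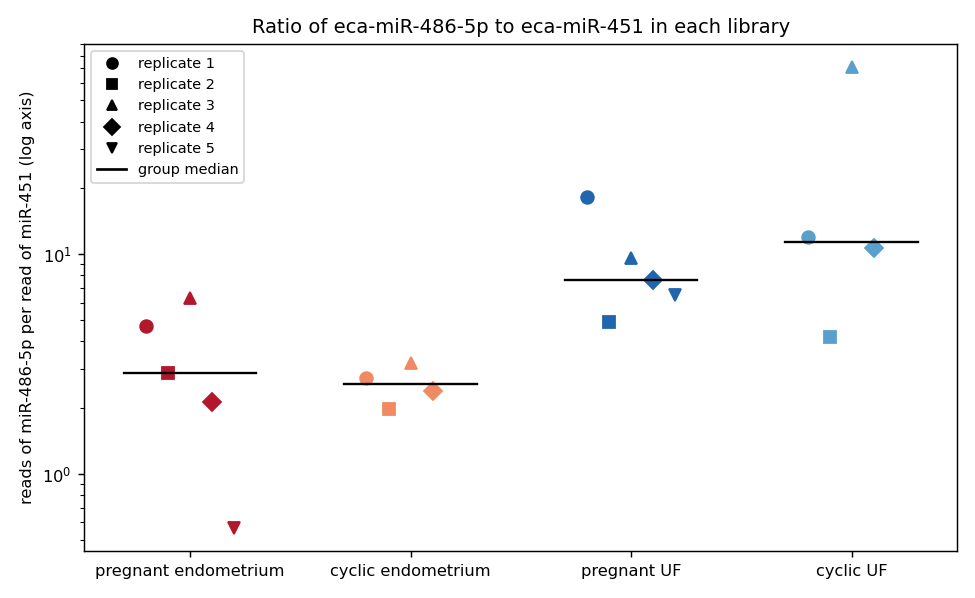
Reads of miR-486-5p per read of miR-451 (log axis) in each endometrial and UF library, with the marker shape giving the replicate and the line the group median. All cyclic UF libraries (4.18 and above) lie above all cyclic endometrial libraries (3.20 and below), and the pregnant endometrium of mare 5 (0.566) is the lowest of all.

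The ratio of miR-451 to miR-23a is used as an index of haemolysis in serum, where miR-23a serves as a stable reference. It lay between 0.985 and 8.22 in pregnant endometrium and between 3.49 and 4.65 in cyclic endometrium. In UF it was 0.0167, 0.0263, 0.0244, 0.0140 and 0.183 in pregnant and 0.0645, 0.689, 0.0333 and 0.0274 in cyclic cycles, so pregnant UF 5 and cyclic UF 2 were the highest of their groups. miR-23a itself was higher in pregnant UF than in pregnant endometrium (2.03, SE 0.40, FDR 0.00121), so that the ratio between the compartments holds both changes, and it differed by 1.13 (FDR 0.172) in cyclic UF. miR-23a was also higher in pregnant than in cyclic UF (1.39, SE 0.40, FDR 0.0160, called), so that the index of the UF groups cannot be compared as a measure of miR-451 alone. In embryo and YS fluid miR-23a had 9 reads each.

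The embryo and its fluid were compared with the endometrium to see how much of these miRNAs they held. In embryo 4 of 4 were lower than in pregnant endometrium, where 42.6% of 359 miRNAs were called lower. miR-486-5p fell by 6.44 on the log2 scale (SE 0.65, FDR 4.75e-06) and miR-451 fell by 6.18 (SE 0.56, FDR 2.24e-06). Without embryo 1 these were -6.51 and -6.35, and 4 of 4 stayed called. miR-486-3p fell by 4.23 (SE 1.10, FDR 0.00462), and its single read lay in embryo 1. miR-144, with no read in embryo, was at least 1.46-fold lower over pooled reads, and its lower bound was 0.919 without replicate 5, so that the depth then no longer showed a difference. For miR-451 and miR-486-5p every embryo library lay below every endometrial library, which held for 29% of all miRNAs tested. For miR-486-3p embryo 1 (35.5 CPM) overlapped with the endometrium of mare 5.

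In YS fluid 4 of 4 were called lower than in pregnant endometrium, against 35.2% of 341 miRNAs, but only miR-451 and miR-486-5p had reads in YS fluid. For these 2 every YS fluid library lay below every endometrial library, as for 22.9% of all miRNAs tested. miR-486-5p fell by 5.62 (SE 0.61, FDR 1.89e-06) and miR-451 fell by 5.59 (SE 0.72, FDR 7.44e-06). For miR-144 and miR-486-3p, which had 0 reads, the floor of 55.6 CPM exceeded the pooled endometrial 24.4 and 53.2 CPM, and both calls were lost with DESeq2 (FDR 0.219 and 0.0539) and with library totals (0.179 and 0.107), which left 2 of 4.

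The size of these differences depended on the scaling. Library totals in place of TMM shifted the log2 fold change of each tested miRNA, and the median of these shifts is given. It was 1.28 in embryo and 1.99 in YS fluid against pregnant endometrium, 1.42 and 1.66 against pregnant UF, and -0.61 in embryo against YS fluid. The median shift was at most 0.23 in size under any scaling in the endometrial and UF comparisons. The split of higher and lower calls in embryo against endometrium went from 103 and 153 to 140 and 94, and in YS fluid against endometrium from 61 and 120 to 119 and 59. On library totals miR-451 was lower by -4.88 in embryo and -3.64 in YS fluid and miR-486-5p by -5.06 and -3.63, all still called.

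Against pregnant UF, 3 of 3 tested miRNAs were lower in embryo (38.7% of 310 miRNAs were). miR-486-5p fell by 4.14 (SE 0.60, FDR 9.92e-05), miR-451 fell by 2.45 (SE 0.68, FDR 0.00730) and miR-486-3p fell by 2.49 (SE 0.87, FDR 0.0247). On library totals, where the split of all calls went from 92 higher and 120 lower to more higher than lower, only miR-486-5p stayed called (-2.78, FDR 0.00373), and miR-451 was -1.13 (FDR 0.203). Without replicate 5 miR-451 was -1.31 and not called, and without replicate 1 it was -2.34 and called. The call of miR-486-3p was lost in 8 of 15 alternatives, with an FDR of up to 0.300, among them the mare as block (-2.45, FDR 0.0722).

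In YS fluid against pregnant UF, miR-486-5p fell by 3.00 (SE 0.63, FDR 0.000918) and miR-486-3p fell by 3.42 (SE 1.24, FDR 0.0457), 2 of 3 against 35.7% of 277 miRNAs. The call of miR-486-3p rests on 9 reads in UF and 0 in YS fluid and was lost whichever of the 5 replicates was left out, and with the mare as block (-3.28, FDR 0.176). miR-451 differed by -1.51 (SE 0.90, FDR 0.158), and with library totals by 0.15, so that it has no settled direction here. On library totals, where the split of all calls went from 65 higher and 99 lower to 114 and 53, 0 of the 3 were called and miR-486-5p was -1.35 (FDR 0.0842). Between embryo and YS fluid 0 of 2 tested miRNAs were called (35.1% of 259 miRNAs were), and 0 had an unadjusted p below 0.05 or were called by DESeq2. miR-451 differed by -0.67 (SE 0.78, FDR 0.525) and miR-486-5p by -0.81 (SE 0.54, FDR 0.250, 95% interval -1.999 to 0.370). The split of all calls there was 57 higher and 34 lower, and 40 and 55 on library totals.

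Markers of other cells were read beside these miRNAs. miR-126, an endothelial miRNA, was also lower in UF than in endometrium, with 2 of 2 arms lower in pregnant UF (median -4.56) and in cyclic UF (-5.84). Of the 5 stromal and smooth muscle miRNAs, 4 were lower in pregnant UF (median -3.35, miR-143 -3.35, miR-199a-3p -2.91) and 5 in cyclic UF (median -4.27, miR-143 -4.27, miR-199a-3p -4.14). The medians were -3.09 over the 4 red cell miRNAs of the report in pregnant UF and -2.29 over the 3 tested in cyclic UF, against -0.12 and -0.24 over all miRNAs tested. Endothelial miRNAs summed to between 1598 and 4816 CPM in endometrium of either cycle and between 7.42 and 316 CPM in UF, and stromal ones to between 12110 and 45569 and between 275 and 5532 CPM. Their part in the differences of the red cell miRNAs was not tested.

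Between UF and endometrium at most 2 miRNAs of each of the leukocyte, epithelial and other red cell lists were called. Of the 8 leukocyte miRNAs, 1 was lower in pregnant UF (miR-223, -2.02, named after its values were seen) and 0 in cyclic UF, with medians of -0.34 and -0.11. miR-155 differed by -0.44 and -0.69 and miR-146a by -0.08 and 0.47, none of them called. Of the 6 epithelial miRNAs 1 was higher in pregnant and 2 in cyclic UF, 0 were lower. miR-205, named after its values were seen, was higher by 4.28 (FDR 0.000320) in pregnant and 3.81 (FDR 0.000487) in cyclic UF, and miR-200b and miR-200c differed by 0.11 and 0.04 in pregnant UF. Of the 11 tested miRNAs of the list of others abundant in red cells, which many tissues also express, 1 was higher in pregnant UF (miR-22, 1.02, named after its values were seen) and 0 in cyclic UF. miR-92a differed by 0.59 and 0.88 and miR-16 by -0.71 and -0.49 there. In pregnant UF miR-16 (FDR 0.0122) passed the FDR but not the 2-fold limit. So did miR-25 (-0.78, FDR 0.00721), miR-15a (-0.90, FDR 0.0412) and miR-93 (0.90, FDR 0.0219), named after their values were seen. The list had medians of -0.45 and -0.42, and with DESeq2 and RLE factors the call of miR-22 was lost in pregnant UF and miR-92a was called higher in cyclic UF. miR-122, a liver miRNA found in plasma, fell by 2.22 in pregnant UF (FDR 0.0463, not called with DESeq2 or library totals) and differed by -0.57 in cyclic UF, at mean levels of at most 17.2 CPM.

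In embryo against endometrium the lists separated further. The red cell miRNAs miR-451, miR-144 and miR-486 were lower together with 8 of 8 leukocyte miRNAs (median -5.67, miR-155 -5.83, miR-146a -6.33), 2 of 2 endothelial (median -5.16) and 5 of 5 stromal miRNAs (median -6.96), against a median of -1.02 over all miRNAs tested. Of the 11 other miRNAs abundant in red cells, 7 were higher and 0 lower (median 1.70), miR-16 by 1.70 and miR-92a, not called, by 0.62. The sum of that list lay between 122252 and 233142 CPM in embryo and between 23588 and 33120 CPM in endometrium, the reverse of miR-451 and miR-486. All 7 tested embryo miRNAs were higher (median 11.42, miR-371-5p 11.42, miR-372 12.82), and so was miR-122 (5.67). Epithelial miRNAs split, with 1 higher and 3 lower of 6, and 2 and 1 on library totals. The directions of the leukocyte, endothelial, stromal and red cell lists were the same with DESeq2, RLE factors and library totals.

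In YS fluid against endometrium 7 of 8 leukocyte miRNAs were lower (median -6.22), and miR-223, miR-142-3p, miR-142-5p, miR-150 and miR-146a had 0 reads in any YS fluid library. With DESeq2, RLE factors and library totals 6 of 8 were lower (medians -3.49, -6.12 and -6.11), without miR-142-3p, whose endometrial mean of 24.9 CPM lies below the 55.6 CPM that 0 reads allow. Also lower were 2 of 2 endothelial (median -5.60), 5 of 5 stromal (-5.45) and 3 of 6 epithelial miRNAs (-1.91, with 2 higher and 1 lower on library totals), against -0.84 over all miRNAs tested, and 3 of the 11 other red cell miRNAs were higher and 3 lower (-0.41), which became 7 and 1 on library totals (1.55). The 7 tested embryo miRNAs (11.58) and miR-122 (6.55) were higher. Between pregnant and cyclic samples 0 miRNAs of any of these lists were called, in endometrium or in UF. In endometrium leukocyte miR-142-5p, named after its values were seen, was called lower in pregnant cycles with DESeq2 and with library totals, and miR-155 passed the FDR but not the 2-fold limit (0.97, FDR 0.00523).

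**Figure D5:**
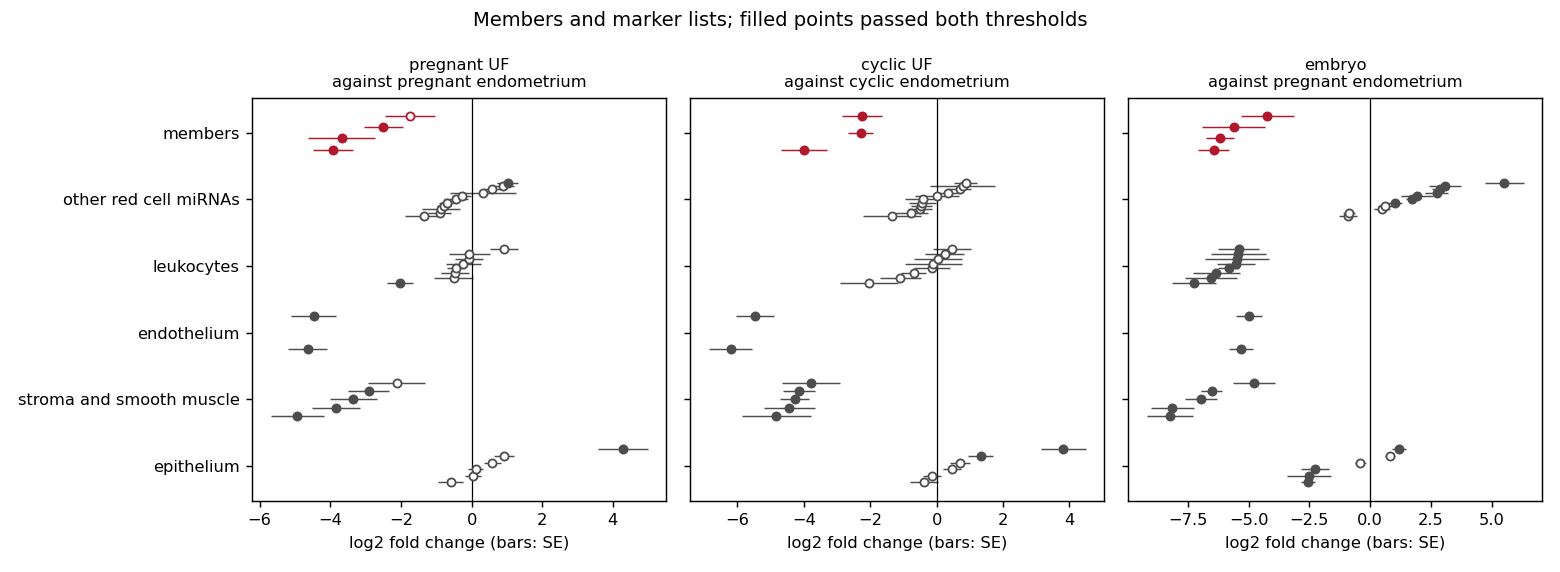
log2 fold change (x axis, bars are standard errors) of each tested member (red) and of each miRNA of 5 marker lists (grey), for UF against endometrium in pregnant and cyclic cycles and for embryo against pregnant endometrium, filled where called. In UF the red points lie left of 0 with endothelium and stroma while leukocyte and other red cell miRNAs scatter about 0, and in embryo leukocyte miRNAs lie left of 0 and other red cell miRNAs mostly right of it.

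The miRNAs whose pattern was most like each member were sought among 121 known miRNAs with at least 1 read in 24 of the 28 libraries and a mean of at least 100 CPM over the groups. Only miR-451 and miR-486-5p qualified, so miR-144 and miR-486-3p have no such list. Likeness over the 6 group means was measured as the SD of the log2 difference. For miR-451 it was closest for miR-196b (0.41), miR-143 (0.52) and miR-199b-3p (0.53), and for miR-486-5p for miR-125b-5p (0.49), miR-199b-3p (0.86) and miR-199a-3p (0.86), where the median over candidates was 2.42 and 2.26. miR-486-5p took place 9 for miR-451 (1.07), and miR-451 place 8 for miR-486-5p.

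Within groups, from library to library, the miRNAs closest to miR-451 were miR-126-3p (pooled SD 0.91), miR-101 (1.00) and miR-27b (1.02), against a median of 1.27. For miR-486-5p they were miR-130a (0.76), let-7g (0.84) and miR-24 (0.85), against 1.10. Here miR-486-5p took place 18 of 120 for miR-451 and miR-451 place 71 of 120 for miR-486-5p, with an SD of 1.14. That SD lay below the median for miR-451 (1.27) but above the median for miR-486-5p (1.10), so most candidates were closer to miR-486-5p than miR-451 was. Both measures hold the counting error of low libraries.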

How the data were processed

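Small RNA libraries of 28 samples were analysed. The authors trimmed adapters and removed short, low-quality or ambiguous reads with cutadapt (1.11 in the submitters' processing notes), counted reads on horse miRNAs of miRBase, predicted further miRNAs with miRPro on EquCab2.0, and deposited raw read counts per miRNA. How reads matching several miRNAs were counted is not given in the sources used here, and no molecular identifiers are described, so intervals and floors cover counting error only. A table of precursors repeated the counts of the predicted miRNAs in 154 of 154 entries and was not used.

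Groups follow the labels, and their replicate numbers were read as mares because the study describes the same mare in both cycles. Deviations from group means correlated weakly between same-numbered pregnant and cyclic samples (mean 0.19 in endometrium, 0.28 in UF, against -0.05 and -0.07 for other numbers). Deviations cancel within a group, so the values for other numbers tend to the opposite sign. Across sample types the same-number means lay between -0.26 (embryo against endometrium) and 0.11 (embryo against UF). They were 0.03 and -0.06 for UF against endometrium in pregnant and cyclic cycles. These correlations therefore do not show that numbers match across sample types. The 9 comparisons and the interaction were fitted on known and predicted miRNAs together with edgeR 4.0.16 (R 4.3.3): at least 1 CPM in as many libraries as the smaller group, TMM, quasi-likelihood test, Benjamini-Hochberg adjustment, FDR at most 0.05 and fold change at least 2. The mare was a block between pregnant and cyclic samples only. Standard errors are the log2 fold change over the root of the test statistic, and intervals of differences are 95% with the test's degrees of freedom. Few values were tested by exact permutation (scipy 1.17.1). Logarithms of counts used 0.5 added reads. The fits were also run on simulated counts drawn without a mare effect, so the use of the mare as block was not tested there. The outcome of that run is not given here and is not used for any result.

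The members and the lists were chosen with earlier results of these data known. Named are the members, the pair of highest mean level in each list, the 3 nearest miRNAs by each measure of likeness, miR-23a, and others marked as named after their values were seen. The lists were 12 other miRNAs abundant in red cells (miR-16, miR-92a, miR-25, miR-363, miR-185, miR-182, miR-183, miR-96, miR-106b, miR-15a, miR-22 and miR-93), leukocytes (miR-223, miR-142, miR-150, miR-155, miR-146a and miR-342), endothelium (miR-126), stroma and smooth muscle (miR-143, miR-145, miR-199a and miR-214), epithelium (the miR-200 family and miR-205), early embryo, and miR-122. Alternatives were the likelihood ratio test, DESeq2 1.42.0, RLE factors, library totals, no filter, filterByExpr, all libraries in a single fit, known miRNAs only, members left out of the scaling, the FDR alone, the block added or left out, 2 added reads, and each replicate left out.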

Additional observations from a re-analysis of the deposited data

Results flagged for a closer look

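Within their groups of 4 or 5 libraries, 7 CPM values lay far above the rest by Dixon's test at the 95% level. The test was run on 26 sets of values, not all of them CPM of the 4 miRNAs, so 26 is no denominator for the 7. It assumes normal values, which CPM from few reads need not follow, so no chance rate is set beside the 7 values. Of these, 3 rest on at most 3 reads, namely miR-451 in YS fluid 4 (689 CPM), miR-144 in pregnant UF 2 (8.37 CPM) and miR-486-3p in embryo 1 (35.5 CPM). For miR-144 and miR-486-3p it was the only read of the group, which the test flags in any case. The other 4 were in UF. miR-451 was at 429.4 CPM in pregnant UF 5 and at 548 CPM in cyclic UF 2, and miR-486-5p at 2804 CPM in pregnant UF 5 and 2289 CPM in cyclic UF 2. miR-451 and miR-486-5p thus stood out in the same UF libraries, 1 of each cycle. The miR-451 to miR-23a ratio was also highest there (0.183 and 0.689). In the endometrium of the same cycle, mare 2 had the highest miR-451 (4468 CPM) and miR-486-5p (8766 CPM) of the cyclic group, while mare 5 had the lowest miR-486-5p (948 CPM) of the pregnant group.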

How the results depend on the processing

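The number of called members changed in 8 comparisons and the interaction. For pregnant against cyclic endometrium it was 0 to 1 with a replicate left out (1 without replicate 1). For pregnant against cyclic UF it was 1 with known miRNAs only and with the members left out of the scaling, and 0 to 1 with a replicate left out. For embryo against pregnant endometrium it was 2 with filterByExpr, which tested fewer members, and for YS fluid against pregnant endometrium 2 with DESeq2, with library totals and with filterByExpr. For embryo against pregnant UF it was 1 with library totals and filterByExpr, and 1 to 3 with a replicate left out. For YS fluid against pregnant UF it was 0 with library totals, 1 with the likelihood ratio test, DESeq2, RLE factors, no filter, filterByExpr, the single fit, known miRNAs only and the replicate block, and 1 with any replicate left out. For the interaction it was 1 with DESeq2. The cause was not tested. Between UF and endometrium it was 3 and became 4 in pregnant cycles with the likelihood ratio test, the single fit, the replicate block and without replicate 5, and 2 with filterByExpr. In cyclic cycles it became 4 with no filter and 2 without replicate 4.

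Pregnant against cyclic endometrium reversed for miR-486-3p with library totals (-0.14), the single fit (-0.023) and no replicate block (-0.17), and ranged from -0.21 to 0.30 with a replicate left out (below 0 without 1, 3 or 4). For miR-486-5p it reversed with library totals (-0.061) and no replicate block (-0.080), and ranged from -3.37e-05, without replicate 3, to 0.17. With a replicate left out, miR-486-3p ranged from -0.29 to 0.49 in UF and from -0.11 to 0.65 in the interaction, both reversed without replicate 4. miR-451 reversed in YS fluid against UF with library totals (0.15), ranged from -1.10 to 0.15 in embryo against YS fluid (reversed without replicate 4) and from -1.44 to 0.048 in the interaction (reversed without replicate 2). The replicate block, added or left out, changed no call beyond those of miR-486-3p given beside the results.

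The log2 ratio of miR-486-5p to miR-451 kept its direction under every alternative. Its exact permutation p missed the threshold in pregnant cycles with 2 reads added (1.46, p = 0.0556) and in 4 of 5 cases with a replicate left out (p = 0.0571 to 0.0857, all but replicate 2), and its values with a replicate left out were 1.20 to 1.94 in pregnant and 1.77 to 2.71 in cyclic cycles, where 3 against 3 cannot reach 0.05. The ratio and these alternatives were chosen after seeing the data, so their p-values are no independent test. Of 519 refitted fold changes of single members, 462 kept direction and side of the threshold, 33 lost the call, 10 gained it and 14 reversed. The depth of YS fluid and embryo limits miR-144 and miR-486-3p most.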
